A study of Mus musculus with 90 samples.

Results

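The duodenum, the first segment of the small intestine, was compared with the stomach, which empties into it. Of the 90 libraries of a mouse series covering 15 tissues, 12 entered the comparison, namely 6 duodenum libraries and 6 libraries whose labels give the tissue as Stomach. All came from female mice given in the labels as C57BL/6 and 10 weeks old, where the study's methods name C57BL/6J mice of a younger age, with no gene alteration or treatment named, and each tissue had 3 libraries from estrus and 3 from diestrus, the fertile and the quiescent phase of the mouse cycle, which the study read from vaginal smears. By the study's methods the tissues were taken from 3 mice per phase, so duodenum and stomach libraries share animals, but the sources used here do not say which stomach library belongs to which duodenum library. Whole pieces of tissue were sequenced, with no purification of cell types. Values are FPKM, counts of fragments divided by transcript length in kilobases and by the library's total, a level per transcript length that can be set side by side between genes. Of 20414 genes in the table, the 12990 that averaged at least 1 FPKM across the 12 libraries were tested. Each difference was fitted with limma on log2(FPKM + 1) with the phase as a covariate and is written as duodenum minus stomach with its standard error, so that a positive value is higher in the duodenum and the fold change of genes with low FPKM is understated. A gene was called when this log2 fold change was at least 1 in either direction and its Benjamini-Hochberg adjusted p was at most 0.05.

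The stomach stores and acidifies food. Its glands hold parietal cells, which pump acid, and chief cells, which release the zymogen of pepsin and, in the mouse, intrinsic factor, and its surface is covered by mucous cells whose gel shields the wall from acid. The mouse stomach has in addition a forestomach, lined by a stratified squamous epithelium like that of the oesophagus. The duodenum neutralises the acid, receives bile and pancreatic juice, and absorbs iron, calcium, sugars, peptides and fat through enterocytes whose apical microvilli, the brush border, carry the last digestive enzymes. Between these enterocytes lie goblet cells, hormone cells and lymphocytes, and at the base of the crypts lie stem cells and Paneth cells, which secrete antimicrobial defensins.

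The defining transcripts of each tissue were in place, but 3 libraries stood apart from their groups. Lct (lactase), Sis (sucrase-isomaltase), Cdx2 (the intestinal master regulator) and Gip (an upper intestinal hormone) were present in all 6 duodenum libraries. They were at or near 0 in all stomach libraries. Atp4a (the acid pump) gave the reverse. So did Pgc (progastricsin) apart from Duodenum estrus 1, where it was well above the other 5 duodenum libraries. Ileal genes were nearly silent in the duodenum, with Fabp6 and Slc10a2 at most 0.77 and 1.92 FPKM. Duodenum estrus 1 correlated less with the other 5 duodenum libraries (Pearson's r of log2(FPKM + 1) across genes 0.871 to 0.890) than these did among themselves (0.924 to 0.986), and it held gastric mucous transcripts at stomach levels, with Gkn1 (gastrokine 1) at 7108 FPKM against 0 to 1.92 FPKM in the other 5. The same library held Gast, the hormone of the gastric antrum, at 29.6 FPKM, while Gast was 0 to 1.34 FPKM in the 6 stomach libraries, so the defining antral hormone was nearly absent from the tissue labelled Stomach. In Stomach estrus 1 and Stomach estrus 3, squamous keratins were far above the other stomach libraries, with Krt13 at 2031 and 3256 FPKM against 30.5, 393, 149 and 8.82 in the others. Where leaving out these libraries ended the call of a named gene or moved a count of a list clearly, this is said beside it. The sum of FPKM over all genes was 510899 to 570625 in the duodenum and 555792 to 623534 in the stomach, and the 10 most abundant genes took 5.97 to 15.7% of it in the duodenum and 15.3 to 42.3% in the stomach.

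In all, 1575 genes were called higher in the duodenum (12.1% of those tested) and 1560 higher in the stomach (12.0%), with a median log2 fold change of -0.06 over all genes tested. Of the called genes, 1379 toward the duodenum and 902 toward the stomach had all 6 values of the higher tissue above all 6 of the other, a separation that 2124 (16.4%) and 1432 (11.0%) of all tested genes showed toward the duodenum and the stomach. Large differences were more numerous toward the duodenum, where 166 genes passed a log2 fold change of 5 against 65 toward the stomach. The 10 separated genes with the largest change toward the duodenum were Prap1 (an acidic secreted protein of the upper gut), the goblet cell lectin Zg16, the lectins Reg1 and Reg3b, the alkaline phosphatases Alpi and Akp3, the fatty acid binding proteins Fabp1 and Fabp2, the calcium binding protein S100g and the membrane mucin Muc13, from 9.21 to 11.54. Prap1 was 2131 to 10999.6 FPKM (median 3364) in the duodenum and 0 to 1.02 FPKM (median 0.24) in the stomach. The 10 toward the stomach were Pgc, Pla2g1b, Atp4b, Chia1, Psca, Atp4a, Clps, Cblif, Cldn18 and Vsig1, from -7.43 to -13.15, and all but Vsig1 (a junctional adhesion protein) are described below. Because whole tissue was sequenced, fewer cells of a type and less RNA per cell cannot be told apart in any of these differences.

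**Figure D1:**
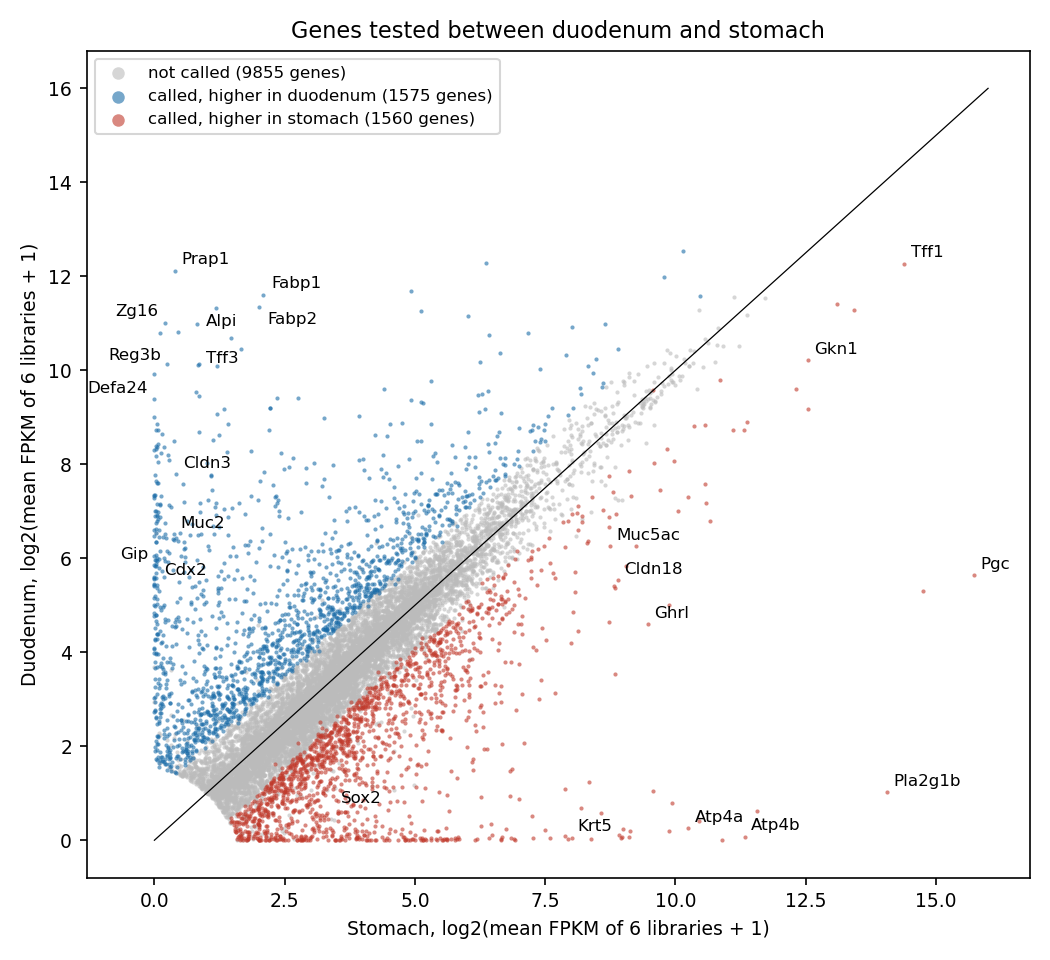
Each point is a gene of the 12990 tested, with the mean over 6 stomach libraries on the horizontal axis and the mean over 6 duodenum libraries on the vertical axis, both as log2(mean FPKM + 1). The 1575 genes called higher in the duodenum (blue) and the 1560 called higher in the stomach (red) lie on either side of the uncalled genes (grey), and the named Zg16, Gip, Atp4a and Atp4b lie close to an axis, near 0 in the other tissue.

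Genes of the acid and enzyme glands were mostly called higher in the stomach, and the proton pump was near 0 in the duodenum. Others were not absent there, with means of 17.9 FPKM for Kcnq1 and 25.7 for Slc4a2, against 37.5 and 101 in the stomach. All 17 parietal cell genes tested were called higher in the stomach, with a median log2 fold change of -3.23, and 14 of them were separated. Atp4a and Atp4b encode the subunits of the proton pump that acidifies gastric juice. Atp4a was 371 to 2058 FPKM (median 1104) in the stomach and 0.04 to 0.3 FPKM (median 0.2) in the duodenum (log2 fold change -9.82 ± 0.32, adjusted p = 8.1e-10), and Atp4b was 791 to 4519.8 FPKM (median 2516) against 0 to 0.17 FPKM (median 0.03) (log2 fold change -11.09 ± 0.32, adjusted p = 3.8e-10). The pump thus stayed at or below 0.3 FPKM in every duodenum library, Duodenum estrus 1 included. The potassium channel subunit Kcne2, which recycles potassium for the pump, the chloride transporters Slc26a7 and Slc26a9 and the potassium channels Kcnj15 and Kcnj16 were called at -2.36 to -5.63. Car2, the carbonic anhydrase that supplies the protons, was 881 to 1479 FPKM (median 1197) in the stomach and 552, 187, 42.0, 29.9, 102 and 27.0 FPKM in the duodenum in the order estrus 1 to 3 and diestrus 1 to 3 (log2 fold change -3.80 ± 0.62, adjusted p = 0.00038), so it was lower but not absent there. Receptors through which acid secretion is driven were also higher in the stomach, namely Hrh2 for histamine (-2.69), Cckbr for gastrin (-2.03) and Chrm3 for acetylcholine (-1.48), as was the inhibitory somatostatin receptor Sstr2 (-2.37).

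Of 9 chief cell genes tested, 7 were called higher in the stomach (median log2 fold change -3.44) and none in the duodenum. Pgc, a pepsin zymogen, was 50021, 115889, 15914, 51017, 50110.3 and 44337 FPKM in the stomach in the same order, and 287, 1.29, 0.93, 1.84, 2.34 and 0.53 in the duodenum (log2 fold change -13.15 ± 1.11, adjusted p = 2.2e-06). Chia1, the acidic chitinase that digests chitin in the stomach, was 48.1 to 3158 FPKM (median 1976) against 0 to 0.04 FPKM (median 0) (log2 fold change -10.13 ± 0.82, adjusted p = 1.5e-06), and Cblif, gastric intrinsic factor, was 35.0 to 806 FPKM (median 548) against 0 to 0.92 FPKM (median 0.03) (log2 fold change -8.32 ± 0.65, adjusted p = 1.2e-06). All 3 were lowest among stomach libraries in Stomach estrus 3, yet the 2 groups did not overlap. The genes with no call were Bhlha15, a transcription factor of secretory cells (-0.86, adjusted p = 0.073), and the water channel Aqp4 (-0.54, adjusted p = 0.26).

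Gastric mucous genes were near 0 in 5 duodenum libraries and at stomach levels in Duodenum estrus 1. Of 16 surface and neck mucous genes tested, 15 were called higher in the stomach, with a median log2 fold change of -7.32 that became -8.64 without that library, but 3 of the 16 were separated, since that library overlapped the stomach in the others. Tff1, a trefoil peptide of surface mucous cells and with a median of 21492 FPKM the most abundant of the list, was 16531 to 29079 FPKM (median 21492) in the stomach, 29618 in Duodenum estrus 1 and 0.13 to 20.7 FPKM in the other 5 (log2 fold change -10.43 ± 1.98, adjusted p = 0.0011; without Duodenum estrus 1 -12.58 (adjusted p = 4.5e-08)). Gkn2, gastrokine 2, was 7606 to 13558 FPKM (median 11149.6), 15012 and 0 to 2.96 FPKM in the same way (log2 fold change -10.43 ± 1.94, adjusted p = 0.00092), and Gkn1 was 4098 to 7495 FPKM (median 5885) in the stomach (log2 fold change -9.96 ± 1.82, adjusted p = 0.00082). Without Duodenum estrus 1 they were at -12.60 and -12.00. The genes of the list whose groups were separated were Psca (-10.07), Cldn18 (-7.48) and Vsig1 (-7.43), each lower in Duodenum estrus 1 than in any stomach library. The stomach libraries also differed in some of these genes, picked here after their values were seen. Muc6, the mucin of neck and pyloric gland cells, was 426, 1131, 119.5, 876, 4184 and 2359 FPKM in the 6 stomach libraries and Tff2, its companion trefoil, 2983, 5539, 2763, 4639.8, 24876 and 11927, both highest in Stomach diestrus 2, whereas Muc5ac, the surface mucin, was 187, 547, 394, 579.6, 352 and 509. Galnt6, a glycosyltransferase of mucin glycans, was the member without a call (0.56, adjusted p = 0.23), at 37.3 to 49.7 FPKM (median 43.0) in the duodenum.

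The gastrokine genes lie side by side, with no other protein-coding gene between Gkn1, Gkn2 and Gkn3 in the RefSeq annotation. Gkn3 was also called higher in the stomach on the log2 scale (-4.55, limma adjusted p = 0.043). It lost the call in 10 of the 12 fits that leave out 1 library. Its mean FPKM was nearly the same in both tissues, at 762 in the duodenum and 758 in the stomach. The 250 bases before the annotated starts of Gkn1 and Gkn2, which moved together here, are shown from RefSeq on GRCm38.p6 with the letters AGATAA, a form of the binding motif of GATA factors, in capitals. The motif was searched on both strands, so a match on the other strand reads TTATCT.
Gkn1 (chr6:87350916-87351165, minus strand): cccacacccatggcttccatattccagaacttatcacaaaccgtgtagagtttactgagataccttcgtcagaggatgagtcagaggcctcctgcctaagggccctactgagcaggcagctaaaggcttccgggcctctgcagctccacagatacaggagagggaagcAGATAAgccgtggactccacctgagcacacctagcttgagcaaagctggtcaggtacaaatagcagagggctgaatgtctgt
Gkn2 (chr6:87373115-87373364, plus strand): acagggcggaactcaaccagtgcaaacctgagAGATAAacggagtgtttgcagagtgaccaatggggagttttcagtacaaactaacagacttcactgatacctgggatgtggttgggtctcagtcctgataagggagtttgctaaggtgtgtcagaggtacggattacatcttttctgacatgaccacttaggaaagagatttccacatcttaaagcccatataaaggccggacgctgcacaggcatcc
Counted in windows from 250 bases before to 50 after a start, this string was present in 5 of the 11 mucous genes with a promoter in the table (Cldn18, Gkn1, Gkn2, Gkn3 and Muc6), in 3 of 11 parietal genes, in 0 of 6 chief cell genes and in 4 of 22 brush border genes. It was in 13.1% of the 1219 genes called higher in the duodenum, in 8.74% of the 1167 called higher in the stomach, in 8.30% of the 10335 tested genes with a promoter and in 11.2% of all 32851 windows, so its share was higher among duodenum genes than among stomach genes as a whole. The GATA factors themselves were present in both tissues, with Gata4 60.9 to 91.2 FPKM (median 69.7) in the duodenum and 62.9 to 107 FPKM (median 95.2) in the stomach (-0.32, adjusted p = 0.055), Gata5 0.34 and Gata6 -0.23, none of them called.

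The brush border was higher in the duodenum without exception. All 26 of its genes were called higher in the duodenum, all 26 were separated, and their median log2 fold change was 6.30. The disaccharidases Lct, Sis, Mgam (maltase-glucoamylase) and Treh (trehalase) split the last sugars. Mgam was 149.7 to 703 FPKM (median 277) in the duodenum and 0.01 to 0.72 FPKM (median 0.02) in the stomach (log2 fold change 8.0 ± 0.32, adjusted p = 3.1e-09), and Lct was 47.8 to 274 FPKM (median 159) against 0.04 to 0.13 FPKM (median 0.09) (log2 fold change 6.90 ± 0.41, adjusted p = 1.2e-07). Mgam was lowest in Duodenum diestrus 1 and Lct in Duodenum estrus 1, and neither came near the stomach values there. Anpep, an aminopeptidase that frees amino acids from peptides, was also measurable in the stomach, at 18.9 to 109 FPKM (median 66.4) against 841 to 3738 FPKM (median 2322) in the duodenum (log2 fold change 5.18 ± 0.43, adjusted p = 1.8e-06). Tmprss15, the enteropeptidase that activates pancreatic trypsinogen, was 12.8 to 106 FPKM (median 41.0) against 0 to 0.06 FPKM (median 0.03) (log2 fold change 5.13 ± 0.46, adjusted p = 3.5e-06). Among proteins that build the microvilli, the actin-bundling Vil1 (villin) and Espn (espin) and the motor Myo1a were at 2.68 to 4.43 while the intermicrovillar adhesion proteins Cdhr2 and Cdhr5 were at 7.30 and 6.94.

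All 3 tested alkaline phosphatases, which detoxify bacterial lipopolysaccharide at the brush border, were called higher in the duodenum. Alpi was 1217, 4132, 2327, 1033, 2393 and 1095 FPKM in the duodenum libraries (estrus 1 to 3, diestrus 1 to 3) and 0.45 to 1.74 in the stomach (log2 fold change 10.01 ± 0.31, adjusted p = 5.8e-10). Akp3, a duodenal isozyme whose gene adjoins Alpi with no protein-coding gene between them, was 799.5, 4709, 1729, 425, 2771 and 171 and 0 to 0.41 (log2 fold change 9.93 ± 0.63, adjusted p = 1.8e-07), highest in Duodenum estrus 2 and diestrus 2 as its neighbour was, and over a wider range. Alppl2, on the other side of Alpi, reached 4.44 FPKM in the duodenum (log2 fold change 1.62 ± 0.21, adjusted p = 7.2e-05). The 250 bases before the Alpi start hold CAAAGTCC, a form of the binding motif of HNF4 factors, with its first base 19 bases before the start, here in capitals.
Alpi (chr1:87101607-87101856, minus strand): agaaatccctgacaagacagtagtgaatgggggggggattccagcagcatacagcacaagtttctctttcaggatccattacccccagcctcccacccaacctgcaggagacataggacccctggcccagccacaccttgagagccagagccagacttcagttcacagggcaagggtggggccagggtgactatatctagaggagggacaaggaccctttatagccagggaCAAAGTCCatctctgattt
Searched on both strands of the same windows, this string was found in 4.18% of the 1219 genes with a promoter called higher in the duodenum, in 1.29% of the 1167 called higher in the stomach, in 1.84% of tested genes with a promoter and in 1.42% of all windows. It was in 4 of 22 brush border promoters (Ace, Alpi, Ggt1 and Treh) and in none of 11 mucous, 11 parietal and 6 chief cell promoters. This string and AGATAA were kept after 23 letter strings had been looked at. A role of HNF4 factors in these differences was not tested. Both nuclear receptors that bind such motifs were called higher in the duodenum, Hnf4a at 77.0 to 205 FPKM (median 186) against 30.6 to 48.4 FPKM (median 43.6) (log2 fold change 1.93 ± 0.17, adjusted p = 3.7e-06) and Hnf4g at 40.4 to 119.6 FPKM (median 95.7) against 0.91 to 1.65 FPKM (median 1.18) (log2 fold change 5.33 ± 0.22, adjusted p = 3.7e-09), so both tissues held Hnf4a while Hnf4g was near 1 FPKM in the stomach.

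**Figure D2:**
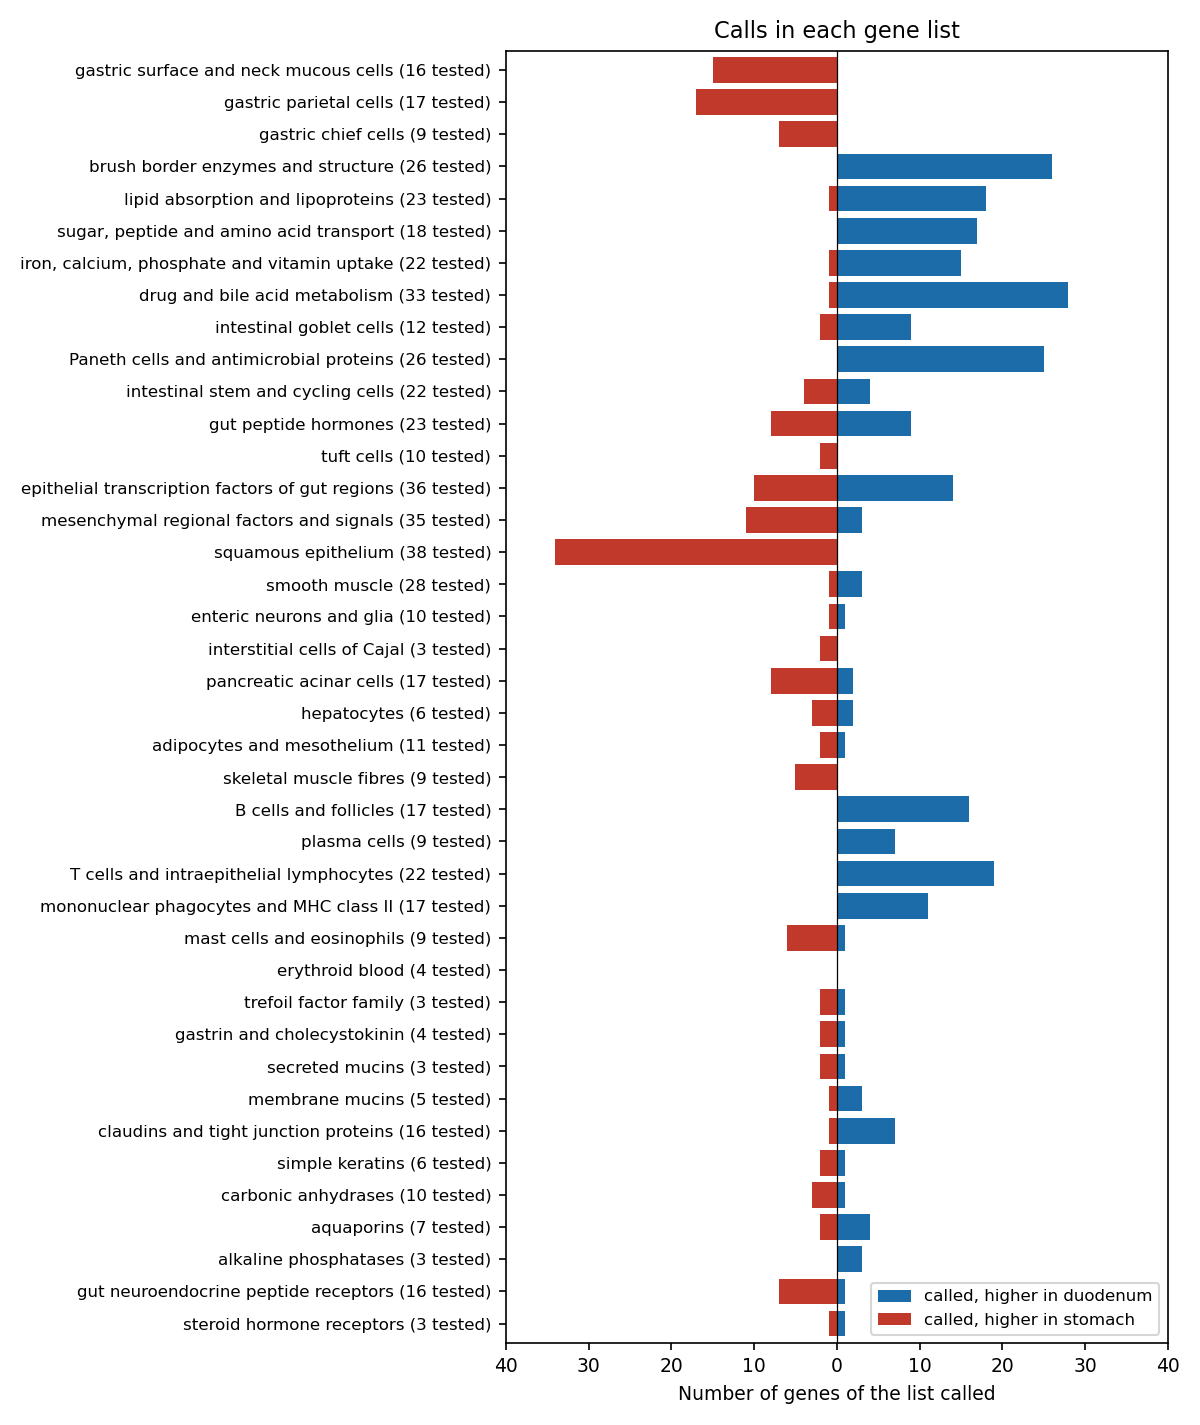
For each of 40 gene lists, the bars give the number of genes called higher in the duodenum (blue, to the right) and higher in the stomach (red, to the left), with the number tested beside the name. Brush border genes reach 26 of 26 on the duodenum side and parietal cell genes 17 of 17 on the stomach side. Tuft cell and smooth muscle genes are mostly uncalled, where 12.1% and 12.0% of all tested genes are called toward the duodenum and the stomach.

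Fat handling followed the brush border. Of 23 lipid absorption and lipoprotein genes tested, 18 were called higher in the duodenum (median log2 fold change 4.34). Fabp1, which carries fatty acids inside the enterocyte, was 1325 to 4168 FPKM (median 3382) against 1.77 to 4.22 FPKM (median 3.46) in the stomach (log2 fold change 9.47 ± 0.27, adjusted p = 3.8e-10), and the intestinal form Fabp2 was 1107 to 4570.3 FPKM (median 2263) against 1.27 to 5.38 FPKM (median 2.77) (log2 fold change 9.21 ± 0.36, adjusted p = 2.7e-09). Mttp, which loads lipid onto apolipoprotein B (8.65), Mogat2 and Dgat1, which rebuild triglyceride (6.95 and 4.34), and Npc1l1, the cholesterol importer (5.69), were separated too. Apoa1, the main HDL protein, was abundant on both sides, at 2449.8 to 11148 FPKM (median 4730.5) and 777 to 1704 FPKM (median 1044) (log2 fold change 2.26 ± 0.35, adjusted p = 0.00024), whereas the adjoining Apoc3 and Apoa4 differed by 8.52 and 6.60. The single lipid gene called higher in the stomach was Clps, the colipase on which pancreatic lipase depends, at 30145, 54582, 4877, 27001, 30205 and 19729.5 FPKM in the stomach libraries and 30.6, 8.28, 42.4, 53.2, 84.5 and 12.4 in the duodenum (log2 fold change -9.53 ± 0.63, adjusted p = 2.8e-07). The fatty acid receptor Cd36 (-0.93, adjusted p = 0.045), Scarb1 (0.54, adjusted p = 0.3), Abca1 (0.51, adjusted p = 0.06) and Acat2 (0.19, adjusted p = 0.6) were not called.

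Sugar, peptide and amino acid carriers were called higher in the duodenum in 17 of 18 cases (median log2 fold change 4.17). Slc5a1, the sodium-coupled glucose importer, was 191 to 995 FPKM (median 543) against 1.55 to 7.46 FPKM (median 2.83) (log2 fold change 6.88 ± 0.42, adjusted p = 1.2e-07), Slc2a2, the basolateral glucose exit, 41.6 to 192 FPKM (median 107) against 0 to 0.02 FPKM (median 0), and Slc2a5, the fructose carrier, 18.4 to 121 FPKM (median 84.7) against 0.77 to 3.12 FPKM (median 2.66). Slc3a2, a subunit that amino acid exchangers share and that most cells use, was high in both tissues at 101 to 229 FPKM (median 170.4) against 57.4 to 70.7 FPKM (median 60.0) (1.42). Slc5a9 was not called (0.93, adjusted p = 0.23). The peptide importer Slc15a1 and the neutral amino acid importer Slc6a19 reached 6.68 and 11.3 and 7.47 and 14.0 FPKM in Stomach estrus 1 and 3 against at most 2.39 and 2.61 in the other stomach libraries. Those 2 libraries also held the most squamous keratin, whose part in this was not tested.

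Genes of mineral and vitamin uptake were mostly higher in the duodenum, and several varied widely within it. Of 22 tested, 15 were called higher in the duodenum and 1 in the stomach (median log2 fold change 2.35), the latter being Hamp, hepcidin, the hormone that closes the iron exporter, at 4.89 to 35.2 FPKM (median 14.4) in the stomach and 0 to 0.88 FPKM (median 0.38) in the duodenum (log2 fold change -3.36 ± 0.42, adjusted p = 5.3e-05). Its close copy Hamp2, with which reads may have been divided, averaged 107 FPKM in the stomach and 0.185 in the duodenum (log2 fold change -6.47). The most abundant were the retinol binding protein Rbp2 (2228 to 7257 FPKM, median 4984 against 22.3 to 165 FPKM, median 76.0; log2 fold change 6.17 ± 0.51, adjusted p = 1.9e-06), the ferritin heavy chain Fth1 (2387 to 6922 FPKM, median 3249 against 745 to 1067 FPKM, median 848; 2.10) and the calcium shuttle S100g (log2 fold change 9.29 ± 0.81, adjusted p = 2.9e-06). S100g was 2296, 4509, 319, 355, 3231 and 103 FPKM in the duodenum libraries and 0.26 to 0.56 in the stomach. The iron exporter Slc40a1 was 89.5, 336, 35.8, 48.7, 179 and 15.2 FPKM (log2 fold change 4.80 ± 0.59, adjusted p = 4.6e-05), the ferric reductase Cybrd1 81.8, 32.9, 3.98, 1.65, 15.8 and 0.83 and the calcium channel Trpv6 6.83, 7.98, 0.14, 0.13, 3.4 and 0.1. In each of these genes Duodenum estrus 1, estrus 2 and diestrus 2 were the 3 highest of the 6, and the same held for the iron importer Slc11a2, at 63.7, 253, 37.2, 26.0, 63.9 and 24.5 FPKM, and the calcium pump Atp2b1, at 78.3, 179, 42.4, 31.9, 81.9 and 23.7. Pdx1, a regulator of the upper duodenum, was 27.0, 67.1, 31.3, 27.3, 77.5 and 19.7 FPKM, highest in estrus 2 and diestrus 2. The same 3 libraries were the lowest for the membrane carbonic anhydrase Car4, at 15.2, 50.4, 172, 234, 25.7 and 209 FPKM. These genes were picked after their values were seen. Iron and calcium uptake are known to be strongest next to the pylorus. Where along the duodenum each piece was taken is not given in the sources used here, and its part in this spread was not tested. Against the stomach, Cybrd1 (1.45, adjusted p = 0.15) and Trpv6 (1.16, adjusted p = 0.088) were not called, nor was the phosphate carrier Slc34a2 (1.16, adjusted p = 0.13).

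Drug and bile acid genes were called higher in the duodenum in 28 of 33 cases, with a median log2 fold change of 4.06. Cyp3a11, the leading drug-oxidising enzyme of the gut wall, was 92.7 to 921 FPKM (median 333) against 0 to 0.21 FPKM (median 0) (log2 fold change 8.39 ± 0.43, adjusted p = 2.8e-08), and the xenobiotic receptors Nr1i2 and Nr1i3 differed by 3.00 and 5.15. Slc51a and Slc51b, which together export bile acids, were at 6.74 and 6.90. Gsta4, a glutathione transferase, was the only member called higher in the stomach, at 1001 to 1905 FPKM (median 1192) against 1617, 286, 197, 107, 387 and 106 FPKM in the duodenum libraries, where estrus 1 lay within the stomach range (log2 fold change -2.23 ± 0.54, adjusted p = 0.0049). The transferases Gsta1 (-0.06, adjusted p = 0.91) and Gstm1 (-0.34, adjusted p = 0.55) were abundant in both tissues and Gstm3 was higher in the duodenum (5.78). Cyp2c65 (0.53, adjusted p = 0.047) and Cyp2j6 (-0.07, adjusted p = 0.83) were not called.

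Goblet cell genes were divided between the tissues. Of 12 tested, 9 were called higher in the duodenum (median log2 fold change 2.76), led by Zg16 at 1133 to 3113 FPKM (median 1936) against 0 to 0.62 FPKM (median 0) (log2 fold change 10.77 ± 0.22, adjusted p = 6.5e-11), Tff3 at 391 to 1454 FPKM (median 1293) against 0.14 to 1.23 FPKM (median 0.89) (log2 fold change 9.19 ± 0.31, adjusted p = 1.1e-09) and Fcgbp, a mucus-associated protein (7.72). Agr2, a disulfide isomerase needed to fold mucins, and Spdef, a transcription factor of mucous cells, were called higher in the stomach instead. Agr2 was 498 to 4568 FPKM (median 1730.1) in the stomach and 52.6 to 1470.1 FPKM (median 246) in the duodenum (log2 fold change -2.66 ± 0.71, adjusted p = 0.0088), and Spdef was 16.7 to 235 FPKM (median 73.6) and 2.9 to 40.8 FPKM (median 8.5) (log2 fold change -2.87 ± 0.62, adjusted p = 0.0024). Atoh1, which commits intestinal cells to the secretory fate, was listed at 0 in all 6 stomach libraries and was 1.88 to 8.8 FPKM (median 6.11) in the duodenum.

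Of 26 Paneth cell and antimicrobial genes tested, 25 were called higher in the duodenum (median log2 fold change 5.33). The alpha-defensins are a family of near-identical genes, so reads may be divided among them uncertainly, and the family is best read as a whole. Defa17 was 27.9, 88.4, 1141, 1344, 2969 and 283 FPKM in the duodenum libraries and listed at 0 in every stomach library, and Defa24 was 23.4, 75.2, 748, 983, 1972 and 196 and likewise 0. Lyz1, the Paneth lysozyme, was 116, 99.5, 701, 937, 2023 and 193 FPKM and the lectin Itln1 13.5, 34.8, 131, 240.3, 334 and 53.3. All 4 of these were highest in Duodenum diestrus 2 and lowest in Duodenum estrus 1 and 2, so 2 of the 3 libraries with high iron and calcium genes were the lowest for Paneth genes. The Reg1 and Reg3 lectins lie next to each other on the same chromosome. Reg1 was 1063 to 5069 FPKM (median 2356) against 0.71 to 2.99 FPKM (median 0.94) (log2 fold change 10.02 ± 0.36, adjusted p = 1.5e-09), Reg3b 444 to 2197 FPKM (median 926) against 0 to 0.34 FPKM (median 0.2) (log2 fold change 9.63 ± 0.37, adjusted p = 2.3e-09) and Reg3g 307 to 1070.2 FPKM (median 732) against 0.5 to 11.7 FPKM (median 4.61) (log2 fold change 6.81 ± 0.39, adjusted p = 6.8e-08), and Reg3a and the distant member Reg4 were listed at 0 in all stomach libraries. Guca2b, uroguanylin, which drives fluid secretion, was 296 to 2277 FPKM (median 762) against 0.31 to 1.2 FPKM (median 0.81) (log2 fold change 8.93 ± 0.41, adjusted p = 1.2e-08). Pigr, the carrier of IgA across the epithelium, was present in both tissues (894 to 2165 FPKM, median 1883 against 15.9 to 335 FPKM, median 119; 4.10). Lypd8, which keeps flagellated bacteria from the epithelium, was the uncalled member at 1913 to 4467 FPKM (median 2679) and 1964 to 4611 FPKM (median 3589) (-0.20, adjusted p = 0.51).

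Stem and cycling cell genes gave no common direction, with a median log2 fold change of -0.20. Of 22, 4 were called in each direction, where 12.1% of all tested genes were called toward the duodenum and 12.0% toward the stomach. Olfm4 (4.28 to 339 FPKM, median 144 against 0.43 to 3.37 FPKM, median 2.1; 4.69) and Axin2 (2.11), both marks of intestinal crypts, were higher in the duodenum together with Ascl2 and Ephb2, while Sox9 (-1.49), Ephb3 (-1.99), Lrig1 (-1.06) and Tnfrsf19 (-1.34) were higher in the stomach. Ascl2, Ephb2 and Lrig1 were near the limits and lost the call in 9, 7 and 2 of the 12 fits that leave out 1 library. Without Stomach estrus 1 and 3, Tnfrsf19 and Lrig1 were at -0.81 and -0.91, with no call. The replication clamp Pcna was 38.9 to 103 FPKM (median 79.4) and 50.2 to 77.7 FPKM (median 65.9) (0.21, adjusted p = 0.33), and the mitotic genes Mki67 (-0.31, adjusted p = 0.46) and Top2a (-0.10, adjusted p = 0.81) were not called either. Without Stomach estrus 1 and 3, 5 of the 22 were called toward the duodenum and 2 toward the stomach.

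Hormone genes were divided by tissue. Of 23 tested, 9 were called higher in the duodenum and 8 in the stomach (median log2 fold change 0.29). Among all tested genes, 12.1% and 12.0% were called in these directions. In the duodenum, Gip, the incretin of K cells, was 27.4 to 81.6 FPKM (median 66.4) against 0 to 0.1 FPKM (median 0) (log2 fold change 5.81 ± 0.21, adjusted p = 1.5e-09), Cck, the hormone that empties the gallbladder, 14.3 to 59.4 FPKM (median 42.2) against 0.09 to 3.04 FPKM (median 0.99) (log2 fold change 4.10 ± 0.31, adjusted p = 9.9e-07), and Sct, secretin, which calls for bicarbonate, 12.1 to 29.96 FPKM (median 24.7) against 0.12 to 0.6 FPKM (median 0.31) (log2 fold change 4.08 ± 0.22, adjusted p = 4.8e-08). The granin Chgb was called higher there too (2.08), with means of 21.3 FPKM in the duodenum and 4.2 in the stomach. So were low levels of Gcg, the precursor of glucagon-like peptides (1.40), of Pyy (1.26) and of the neuropeptide Vip (1.90). The serotonin-loading transporter Slc18a1 (1.43) and the granin Scg2 (1.10) were also low and called higher there. The calls of Gcg and Scg2 were lost in 7 and 2 of the 12 fits that leave out 1 library. In the stomach, Ghrl, ghrelin, the hunger hormone, was 231 to 1036 FPKM (median 749) against 11.1 to 39.0 FPKM (median 21.2) (log2 fold change -4.85 ± 0.30, adjusted p = 1.4e-07), Sst, somatostatin, 48.9 to 314 FPKM (median 187) against 16.6 to 67.9 FPKM (median 57.4) (log2 fold change -1.90 ± 0.41, adjusted p = 0.0025), and Chga, chromogranin A, 26.2 to 108 FPKM (median 65.0) against 7.43 to 23.5 FPKM (median 16.2) (log2 fold change -2.03 ± 0.31, adjusted p = 0.00023). Hdc (-1.80) and Slc18a2 (-1.41), with which enterochromaffin-like cells make and store histamine, Npw (-2.92), Nucb2 (-2.14) and the factor Isl1 (-1.96) were higher in the stomach as well. The uncalled members were Tph1, the serotonin-making enzyme (0.29, adjusted p = 0.28), Tac1 (0.68, adjusted p = 0.24), Scg5 (-0.83, adjusted p = 0.021), Pcsk1n (0.10, adjusted p = 0.78), Nmu (-1.14, adjusted p = 0.29) and Gast (0.33, adjusted p = 0.73), which passed 2 FPKM in Duodenum estrus 1 alone.

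For secretin and cholecystokinin, the ligand and a receptor were higher in different tissues. Of 16 peptide, histamine and acetylcholine receptors tested, 7 were called higher in the stomach and 1 in the duodenum (median log2 fold change -0.81). The shares of all tested genes were 12.0% toward the stomach and 12.1% toward the duodenum. Vipr1, a receptor for the neuropeptide Vip, was 20.1 to 59.8 FPKM (median 47.3) in the duodenum and 0.25 to 2.74 FPKM (median 0.66) in the stomach (log2 fold change 4.59 ± 0.32, adjusted p = 3.8e-07). Sctr, the secretin receptor, was 17.9 to 28.3 FPKM (median 21.0) in the stomach, 11.5 in Duodenum estrus 1 and 0.17 to 0.74 FPKM in the other 5 (log2 fold change -3.41 ± 0.47, adjusted p = 0.00011; -3.92 without Duodenum estrus 1), opposite to its ligand. In the gastrin and cholecystokinin family, Cckar, which binds cholecystokinin, was 1.11 to 22.5 FPKM (median 15.4) in the stomach and 0 to 0.3 FPKM (median 0.06) in the duodenum (log2 fold change -3.44 ± 0.49, adjusted p = 0.00013), again opposite to Cck, and Cckbr was 0.89 to 9.4 FPKM (median 2.87) and 0 to 0.19 FPKM (median 0.01) (log2 fold change -2.03 ± 0.33, adjusted p = 0.00033). The receptor Adcyap1r1 was called at -1.78. Of 3 steroid hormone receptors tested, the mineralocorticoid receptor Nr3c2 was higher in the duodenum (log2 fold change 1.28 ± 0.23, adjusted p = 0.00065), the membrane oestrogen receptor Gper1 higher in the stomach (log2 fold change -2.04 ± 0.36, adjusted p = 0.00065), and the glucocorticoid receptor Nr3c1, at 15.7 to 25.8 FPKM (median 21.9) and 9.66 to 11.6 FPKM (median 11.1), was separated but short of the fold limit (0.91).

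Transcription factors of the gut epithelium were divided between the tissues. Of 36 tested, 14 were called higher in the duodenum and 10 in the stomach (median log2 fold change 0.41). Cdx1 was 21.1 to 83.8 FPKM (median 64.4) against 0 to 0.04 FPKM (median 0) (log2 fold change 5.66 ± 0.26, adjusted p = 1.2e-08) and Cdx2 21.1 to 82.9 FPKM (median 56.5) against 0 to 0.03 FPKM (median 0.01) (log2 fold change 5.69 ± 0.24, adjusted p = 5.2e-09). The other factors called toward the duodenum included Creb3l3 (6.21), Isx (6.00), the vitamin D receptor Vdr (5.98), Hnf4g, Maf (4.63), Pdx1 (4.56), Onecut2 (4.04), Nr5a2 (2.54), Hnf4a, Gfi1 (1.55) and Ppara (1.27). Toward the stomach, Sox2, a foregut factor, was 32.1, 6.86, 59.0, 15.4, 10.9 and 4.32 FPKM in the stomach libraries and 3.32, 0, 0.05, 0.02, 0.05 and 0 in the duodenum (log2 fold change -3.61 ± 0.52, adjusted p = 0.00014), highest in the libraries with high squamous keratins. The forkhead factors Foxa1 (44.7 to 84.0 FPKM, median 67.8 against 0.96 to 20.5 FPKM, median 3.21; log2 fold change -3.73 ± 0.46, adjusted p = 4.4e-05), Foxa2 (-3.09), Foxa3 (-2.08) and Foxq1 (-1.44), Spdef, the lipid receptor Pparg (-1.38), Grhl2 (-1.29), Trim29 (-2.69) and Pitx1 (-2.04) were called toward the stomach too. Pitx1 and Trim29 fell in the same order as the squamous keratin Krt5 over the 6 stomach libraries, neither was called without Stomach estrus 1 and 3, and Pitx1 lost the call in 10 of the 12 fits that leave out 1 library. Nkx6-3, an antral factor, was 40.3, 6.74, 0.05, 0.03, 20.9 and 0.03 FPKM in the duodenum and at most 0.45 in the stomach, with no call (1.84, adjusted p = 0.11), so it was present in the 3 duodenum libraries that were high for iron and calcium genes. Other uncalled factors included Ehf (-1.03), Klf4 (-0.71), Xbp1 (-0.25), Elf3 (-0.06), Prdm1 (0.48) and Klf5 (0.70).

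Among 35 mesenchymal factors and signals, 3 were called higher in the duodenum and 11 in the stomach (median log2 fold change -0.78). The shares of all tested genes were 12.1% and 12.0%. Barx1, the stomach mesenchyme factor, was 47.4, 7.21, 17.04, 15.4, 10.1 and 10.3 FPKM in the stomach libraries and 0 in 5 duodenum libraries, with 21.6 in Duodenum estrus 1 (log2 fold change -3.22 ± 0.71, adjusted p = 0.0029; -3.94 without that library). Nr2f2 was 34.2 to 51.6 FPKM (median 46.8) against 2.87 to 6.42 FPKM (median 3.72) (log2 fold change -3.19 ± 0.16, adjusted p = 2.9e-08). Nkx2-3, a midgut mesenchyme factor, went the other way at 7.22 to 15.5 FPKM (median 11.7) against 0.85 to 1.27 FPKM (median 0.95) (log2 fold change 2.60 ± 0.16, adjusted p = 1.2e-07), together with Hand1 (1.68) and the secreted Wnt antagonist Sfrp5 (1.01). Hoxc8, a positional factor, was 22.6, 0.29, 62.9, 10.2, 1.67 and 0 FPKM in the stomach libraries, the same order as the squamous keratins Krt5 and Krt13. The calls of Hoxc8 and Sfrp5 were lost in 6 and 4 of the 12 fits that leave out 1 library, and Hoxc8 was at -1.07 with no call without Stomach estrus 1 and 3. Without Stomach estrus 1 and 3, 5 of 29 mesenchymal genes were called in each direction, with 6 of the 35 no longer averaging 1 FPKM and so not tested.

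Neighbouring genes of one family could differ in opposite directions. Tff1, Tff2 and Tff3 adjoin with no other protein-coding gene between them, and Tff1 and Tff2 were called higher in the stomach and Tff3 in the duodenum. The secreted mucin genes Muc6, Muc2 and Muc5ac adjoin in the same way. Muc2, the intestinal gel mucin, was 24.9, 52.0, 131, 97.8, 96.1 and 139 FPKM in the duodenum libraries and 0.18 to 0.48 in the stomach (log2 fold change 5.94 ± 0.34, adjusted p = 7.4e-08). Muc6 was 0.07 to 0.87 FPKM in the duodenum outside Duodenum estrus 1, which held 1142 (log2 fold change -7.85 ± 1.67, adjusted p = 0.0023), and Muc5ac was 0 to 0.08 FPKM and 453 (log2 fold change -7.15 ± 1.33, adjusted p = 0.00093). Without that library they were at -9.64 and -8.64. The starts of Muc2 and Muc6 are shown because these neighbours moved in opposite directions, with AGATAA on either strand in capitals as before.
Muc2 (chr7:141690090-141690339, plus strand): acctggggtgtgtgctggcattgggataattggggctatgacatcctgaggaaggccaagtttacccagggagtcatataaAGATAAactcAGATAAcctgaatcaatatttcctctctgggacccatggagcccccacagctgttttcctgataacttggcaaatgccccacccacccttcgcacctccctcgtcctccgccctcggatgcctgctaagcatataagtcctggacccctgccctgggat
Muc6 (chr7:141655394-141655643, minus strand): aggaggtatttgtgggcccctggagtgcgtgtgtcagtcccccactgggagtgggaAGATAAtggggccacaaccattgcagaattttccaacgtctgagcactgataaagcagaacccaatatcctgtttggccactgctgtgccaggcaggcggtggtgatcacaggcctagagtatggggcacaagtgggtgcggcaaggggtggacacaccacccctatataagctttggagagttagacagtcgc
The string was present before both starts, so its presence did not separate the neighbour higher in the duodenum from the one higher in the stomach. Among the 5 membrane mucins tested, Muc13 (758 to 2332 FPKM, median 1669 against 0.69 to 3.72 FPKM, median 1.48; log2 fold change 9.21 ± 0.27, adjusted p = 4.3e-10), Muc3 (log2 fold change 6.66 ± 0.38, adjusted p = 7.5e-08) and Muc4 (1.43) were higher in the duodenum, Muc1 was higher in the stomach (302 to 618 FPKM, median 475 against 0.14 to 61.3 FPKM, median 0.56; log2 fold change -7.33 ± 0.84, adjusted p = 2.6e-05; -8.27 without Duodenum estrus 1), and Muc15 was not called (-1.14, adjusted p = 0.058).

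**Figure D3:**
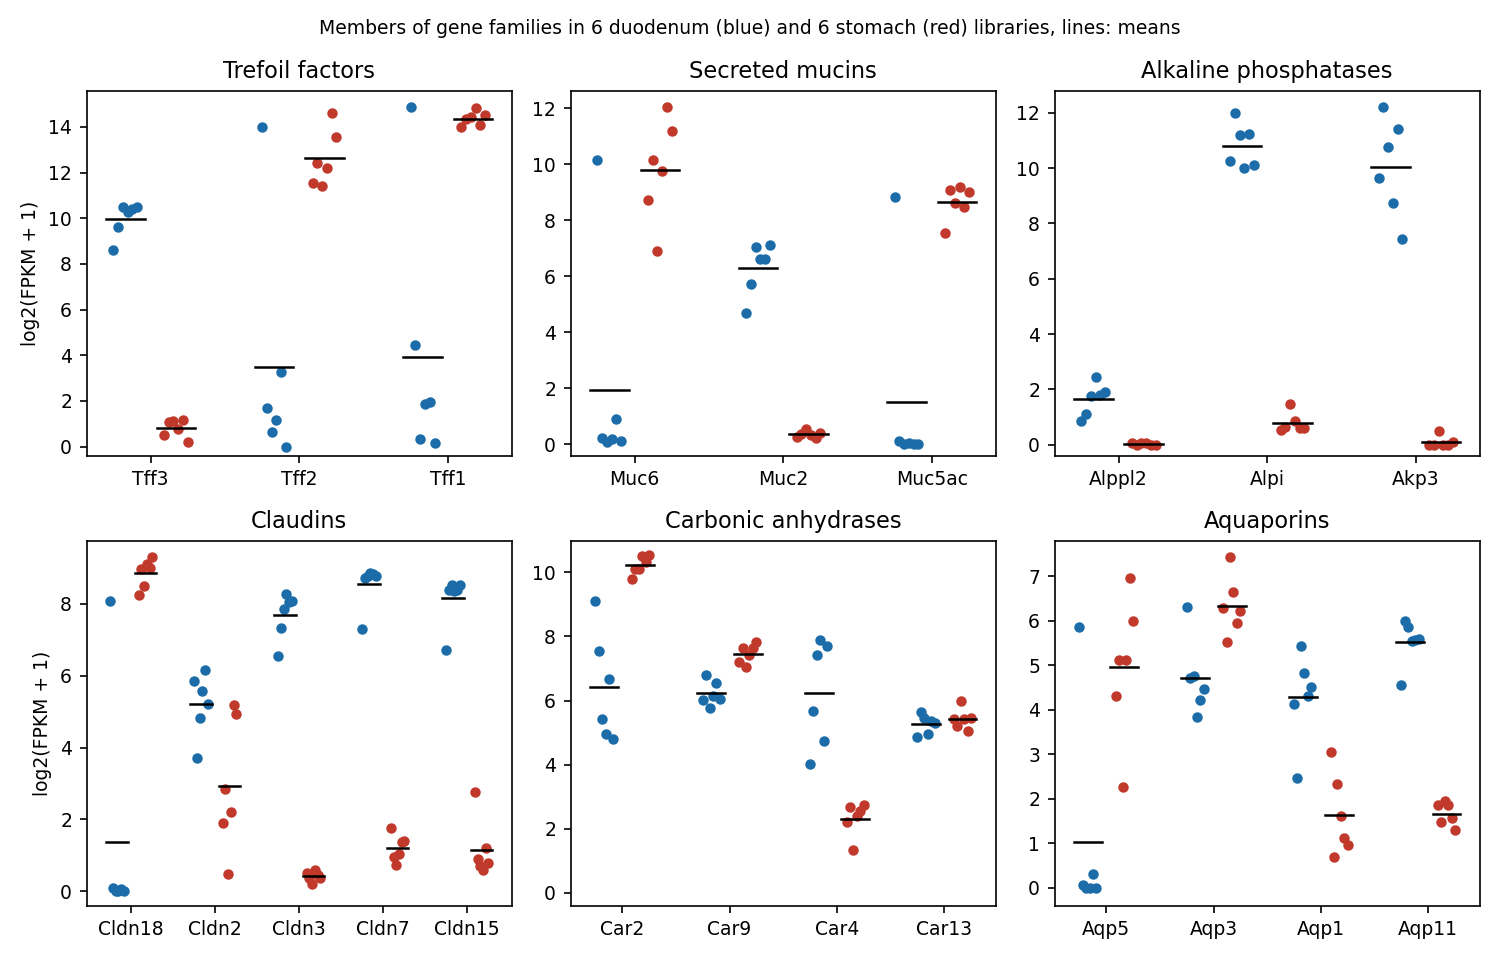
Level of members of 6 gene families, picked after their values were seen, as log2(FPKM + 1), with 1 point per library (blue duodenum, red stomach, both phases) and a short line at the mean of the 6 libraries. Tff1 and Tff2 are high in the stomach and in Duodenum estrus 1, Tff3 is high in the duodenum, and Cldn18 is the claudin called higher in the stomach while 7 tight junction genes are called higher in the duodenum.

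Tight junction genes, which set how leaky an epithelium is, differed by member. Of 16 tested, 7 were called higher in the duodenum and 1 in the stomach (median log2 fold change 0.35). The shares of all tested genes were 12.1% toward the duodenum and 12.0% toward the stomach. Cldn7 (157 to 466 FPKM, median 438 against 0.66 to 2.41 FPKM, median 1.31; log2 fold change 7.34 ± 0.26, adjusted p = 1.5e-09), Cldn3 (93.2 to 309.9 FPKM, median 249 against 0.15 to 0.52 FPKM, median 0.33; log2 fold change 7.28 ± 0.21, adjusted p = 3.8e-10) and the sodium-pore claudin Cldn15 (6.99) were below 6 FPKM in every stomach library, and Cldn4 (2.89), Marveld3 (2.63), Cldn2 (2.30, with no call at 1.68 without Stomach estrus 1 and 3) and Cldn23 (1.69) were also higher there. Cldn18, the gastric barrier claudin, was 301 to 629 FPKM (median 506) in the stomach, 271 in Duodenum estrus 1 and 0 to 0.06 FPKM in the other 5 (log2 fold change -7.48 ± 1.22, adjusted p = 0.00037; -8.85 without Duodenum estrus 1). The general components Ocln (0.38, adjusted p = 0.038), Tjp1 (-0.67), Tjp3 (0.16) and Marveld2 (0.32) and the claudins Cldn1 (-1.07, adjusted p = 0.071), Cldn5 (0.21) and Cldn12 (-0.09) were not called. Of 6 simple keratins, Krt20 of villus tips was higher in the duodenum (473 to 1347 FPKM, median 801 against 16.1 to 83.5 FPKM, median 32.6; log2 fold change 4.57 ± 0.39, adjusted p = 2.5e-06), Krt18 (-1.96) and Krt23 (-3.72) higher in the stomach, and Krt8 (0.17, adjusted p = 0.47), Krt19 (-0.56, adjusted p = 0.2) and Krt7 (1.07, adjusted p = 0.2) uncalled.

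Of 10 carbonic anhydrases, Car4 was higher in the duodenum (log2 fold change 3.93 ± 0.62, adjusted p = 0.0003), Car2, the mitochondrial Car5b (-2.03) and Car9 (129.9 to 224 FPKM, median 184 against 53.9 to 110.2 FPKM, median 67.4; -1.24) were higher in the stomach, and Car3, Car8, Car11, Car12, Car13 and Car15 were not called, from -1.67 for Car12 to 0.83 for Car3 (median of the family -0.50). Over all tested genes, 12.1% were called toward the duodenum and 12.0% toward the stomach. Of 7 aquaporins, Aqp11 (3.85), Aqp1 (2.65), Aqp7 (2.62) and Aqp8 (2.62) were higher in the duodenum, Aqp5 (-3.92) and Aqp3 (-1.62) higher in the stomach, and Aqp4 uncalled (median 2.62). Aqp5, a water channel of secretory glands, was 18.8, 33.9, 3.79, 33.5, 123 and 62.9 FPKM in the stomach libraries, highest in the library that was highest for Muc6 and Tff2, and 56.8 in Duodenum estrus 1.

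Squamous epithelium genes were higher in the stomach but unevenly so across its libraries. Of 38 tested, 34 were called higher in the stomach and none in the duodenum (median log2 fold change -3.45), but 13 were separated. Krtdap, a keratinocyte protein, was 4900.1, 108, 11169.6, 1395, 493 and 0.41 FPKM in the stomach libraries and 0 to 1.16 in the duodenum (log2 fold change -8.19 ± 1.66, adjusted p = 0.0016). Krt13, a keratin of the oesophagus and forestomach, was 2031, 30.5, 3256, 393, 149 and 8.82 against 0 to 3.87 (log2 fold change -7.31 ± 1.18, adjusted p = 0.00035), and Krt1 was 1937, 33.8, 3067, 363, 196 and 0.64 against 0 to 0.45 (log2 fold change -7.23 ± 1.43, adjusted p = 0.0014). Stomach estrus 3 was highest, Stomach estrus 1 next, and Stomach diestrus 3 held almost none. Within estrus 32 of the genes were called higher in the stomach, where 12.2% of all tested genes were, and within diestrus 7, where 9.68% were. Without Stomach estrus 1 and 3, 24 of 33 were called. The basal factor Trp63 was 28.6, 0.64, 60.9, 9.46, 1.86 and 0 FPKM in the stomach libraries (-2.73, with no call at -1.31 without Stomach estrus 1 and 3). The forestomach is part of the mouse stomach, and how much of it each piece held was not measured.

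**Figure D4:**
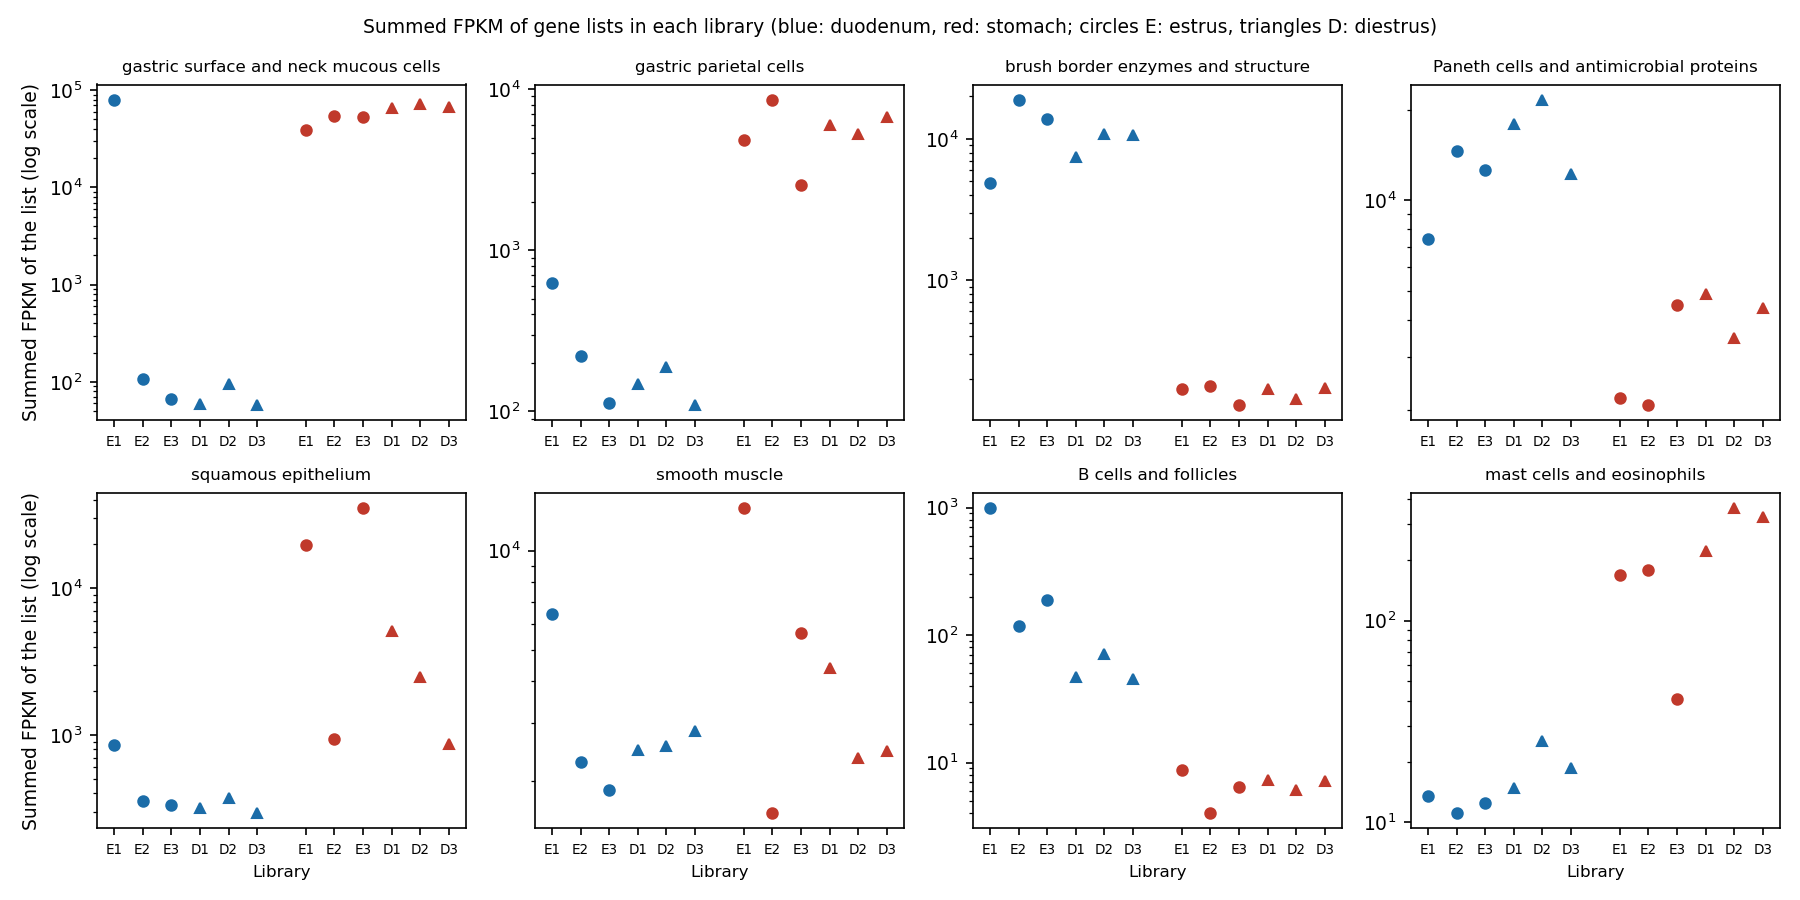
Summed FPKM of 8 gene lists in each of the 12 libraries (E1 to E3 estrus as circles, D1 to D3 diestrus as triangles, blue duodenum, red stomach) on a logarithmic axis. Gastric mucous genes reach stomach levels in Duodenum estrus 1 and parietal genes do not, squamous genes peak in Stomach estrus 3 and 1, and B cell genes peak in Duodenum estrus 1.

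Smooth muscle and nerve genes of the wall were mostly uncalled, as were most tested genes. Of 28 smooth muscle genes, 3 were called higher in the duodenum and 1 in the stomach (median log2 fold change -0.58). Over all tested genes, 12.1% and 12.0% were called in these directions. Tagln was 38.9 to 539.7 FPKM (median 86.8) and 91.4 to 1508 FPKM (median 326) (-1.80, adjusted p = 0.06), Acta2 44.4 to 413 FPKM (median 128) and 69.0 to 1595 FPKM (median 250.5) (-1.16, adjusted p = 0.21), and Actg2 37.6 to 513 FPKM (median 97.8) and 65.6 to 1566 FPKM (median 320.4) (-1.55, adjusted p = 0.13), with Stomach estrus 1 and Duodenum estrus 1 the highest libraries of their groups, so the groups overlapped. The called members were Mylk (1.35), Ckb (1.56) and Ldb3 (2.83) toward the duodenum and Tns1 (-1.43) toward the stomach, with the call of Mylk lost in 9 of the 12 fits that leave out 1 library and that of Tns1 lost without Stomach estrus 1 and 3 (-1.05). Without Duodenum estrus 1, 2 were called toward the duodenum and 5 toward the stomach. Tagln, Acta2 and Actg2 were called toward the stomach in a fit of all 90 libraries and in 1 with replicate numbers as a block. Of 10 genes of enteric neurons and glia, Vip was higher in the duodenum and Tubb3 in the stomach (-1.14, not called without Stomach diestrus 3), with a median of 0.49. Of 3 genes of interstitial cells of Cajal, the pacemaker cells, the chloride channel Ano1 (11.9 to 16.9 FPKM, median 15.2 against 1.00 to 11.1 FPKM, median 2.12; log2 fold change -2.20 ± 0.37, adjusted p = 0.00042) and Kit (-1.18) were higher in the stomach and Etv1 was uncalled (0.02, adjusted p = 0.96). Of 9 skeletal muscle genes, 5 were higher in the stomach (median -1.27), led by Tnni2 at 37.6 to 73.1 FPKM (median 45.5) against 77.8 FPKM in Duodenum estrus 1 and 0.48 to 1.56 FPKM in the other 5 (log2 fold change -3.90 ± 0.80, adjusted p = 0.0017; -4.78 without that library), whereas Ckm (-0.63, adjusted p = 0.37) and Acta1 (0.34, adjusted p = 0.52) were uncalled. Of 11 genes of fat and mesothelium, Cidec, which coats lipid droplets, was higher in the duodenum (23.3 to 83.0 FPKM, median 45.5 against 3.66 to 10.3 FPKM, median 6.96; 2.64) and Fabp4 (-1.58) and Lpl (-3.43) were higher in the stomach (median -0.34). Without Stomach estrus 1 and 3, Fabp4 was at -0.87 with no call, and of the 8 genes still tested 4 were called toward the duodenum and 1 toward the stomach.

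Immune genes were mostly higher in the duodenum, in each list but that of mast cells. Of 22 genes of T cells and intraepithelial lymphocytes, 19 were called toward the duodenum and none toward the stomach (median log2 fold change 1.47). Ccl25, the epithelial chemokine that draws lymphocytes into the small intestine, was 316 to 693 FPKM (median 562) against 1.12 to 1.48 FPKM (median 1.31) (log2 fold change 7.83 ± 0.16, adjusted p = 6.5e-11), its receptor Ccr9 1.73 to 4.46 FPKM (median 3.12) against 0.07 to 0.29 FPKM (median 0.17) (1.77), and the granzyme Gzma 44.3 to 176 FPKM (median 94.6) against 0.51 to 13.2 FPKM (median 1.14) (log2 fold change 5.01 ± 0.47, adjusted p = 5.7e-06). Ccl5 was also among the most abundant (2.16). Of 9 plasma cell genes 7 were higher in the duodenum (median 1.93), with Jchain, which joins IgA into dimers, at 162 to 1501 FPKM (median 777) against 2.86 to 52.6 FPKM (median 15.7) (log2 fold change 5.34 ± 0.48, adjusted p = 4e-06), Mzb1 at 4.09 and Xbp1 uncalled. Of 17 genes of phagocytes and MHC class II, 11 were higher in the duodenum and none in the stomach (median 1.37). The class II genes Cd74 (1478 to 2374 FPKM, median 1996 against 151 to 489 FPKM, median 227; log2 fold change 3.01 ± 0.24, adjusted p = 1.4e-06), H2-Ab1 (3.15) and H2-Aa (3.21) were the most abundant of the list, and the macrophage genes C1qa (0.91, adjusted p = 3.5e-05) and Cd68 (0.11, adjusted p = 0.65) were not called.

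B cell genes were higher in the duodenum, with levels that varied widely among its libraries. Of 17 tested, 16 were called higher in the duodenum (median log2 fold change 2.15) and 13 were separated. Cd79a, part of the B cell receptor, was 233, 32.6, 52.8, 16.2, 32.9 and 17.8 FPKM in the duodenum libraries and 0.22 to 0.77 in the stomach (log2 fold change 4.78 ± 0.46, adjusted p = 6.7e-06). The follicle chemokine Cxcl13 was 113, 7.73, 20.3, 4.31, 2.69 and 2.00 against 0 to 1.49 (log2 fold change 3.04 ± 0.61, adjusted p = 0.0016). Duodenum estrus 1 was highest for both, and estrus libraries exceeded diestrus ones for Cxcl13. In the list, 16 members were called within estrus, where 12.0% of all tested genes were called toward the duodenum, and 4 within diestrus, where 11.9% were. Without Duodenum estrus 1, 11 of the 12 that still averaged 1 FPKM were called, and without Stomach estrus 1 and 3, 6 of 17. How many lymphoid follicles each piece held was not tested.

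Mast cell genes ran toward the stomach, in contrast to the other immune lists. Of 9 mast cell and eosinophil genes, 6 were called higher in the stomach and 1 in the duodenum (median log2 fold change -2.68). The mast cell proteases Mcpt1 (60.1, 81.5, 13.3, 108, 167 and 175 FPKM in the stomach libraries, 0.59, 2.21, 2.17, 4.1, 3.49 and 6.34 in the duodenum; log2 fold change -4.39 ± 0.39, adjusted p = 3.8e-06), Mcpt2 (11.6 to 115 FPKM, median 63.5 against 0.38 to 4.5 FPKM, median 1.5; log2 fold change -4.50 ± 0.46, adjusted p = 1.1e-05) and Tpsb2 (-4.10) were separated, as were Cpa3, Cma1 and Mcpt4. Prg2, the major basic protein of eosinophils, was higher in the duodenum at 3.35 to 15.3 FPKM (median 4.28) against 0 to 0.36 FPKM (median 0.04) (log2 fold change 2.51 ± 0.28, adjusted p = 2.1e-05), and Siglecf was not called (0.71, adjusted p = 0.0084).

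Lists of adjoining organs and blood were read for other tissue in the pieces. Of 17 pancreatic acinar genes tested, 2 were called higher in the duodenum and 8 in the stomach (median log2 fold change -0.93), and most of the digestive zymogens were low, with Ctrb1 and Cela2a at most 16.1 and 12.6 FPKM, both in Duodenum estrus 1, and at most 0.44 and 0.68 in the stomach. Against that, Pla2g1b, the secreted phospholipase, was 18910.1, 35467, 2946, 17661, 18082 and 9146 FPKM in the stomach libraries and 0 to 5.35 in the duodenum (log2 fold change -13.10 ± 0.60, adjusted p = 1.1e-08), highest in Stomach estrus 2 and lowest in Stomach estrus 3 as Pgc and Clps were, and the lipase relatives Pnliprp1 (-3.03) and Pnliprp2 (-2.80) were higher in the stomach. Toward the duodenum, Spink1, a trypsin inhibitor, was 123 to 555 FPKM (median 288) against 0 to 0.48 FPKM (median 0.23) (log2 fold change 7.78 ± 0.30, adjusted p = 2.6e-09), and Zg16 is shared with the goblet list. Of 6 genes of hepatocytes, 2 were higher in the duodenum, among them Cps1 (6.51), which fixes ammonia, and Ttr (16.7 to 65.6 FPKM, median 32.5 against 0.69 to 17.5 FPKM, median 2.41; -3.09), Alb (-1.63) and Arg1 (-1.53, a call lost in 5 of the 12 fits that leave out 1 library and without Stomach estrus 1 and 3) higher in the stomach, with Alb at most 9.44 FPKM in any library (median -0.31). Without Stomach estrus 1 and 3, 5 hepatocyte genes were still tested, with 3 called toward the duodenum and 1 toward the stomach. None of 4 erythroid genes tested was called (median 1.37), with Hba-a1 at 15.5, 367, 94.2, 125, 70.2 and 54.1 FPKM in the duodenum and 11.5 to 55.7 FPKM (median 24.5) in the stomach (1.47, adjusted p = 0.077), and all 4 were called higher in the duodenum without Duodenum estrus 1. Of 10 tuft cell genes, Avil (-2.72) and Gng13 (-1.12) were higher in the stomach and 8 were uncalled (median 0.20), among them Ptgs1 (0.47, adjusted p = 0.31) and Sh2d6 (0.66, adjusted p = 0.0064). Beside the counts of these lists, 12.1% of all tested genes were called toward the duodenum and 12.0% toward the stomach.

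Many of the called genes were higher still in another of the 15 tissues. Of the 1575 genes higher in the duodenum, 675 (42.9%, against 8.57% of all genes tested) had their highest mean of the 15 tissues in the duodenum, 295 (18.7% against 19.8%) in the spleen, 124 (7.87% against 3.13%) in the liver and 116 (7.37% against 5.01%) in the kidney, so the share of the spleen was near that of all genes. Of the 1560 higher in the stomach, 528 (33.8% against 6.60%) had their highest mean in the stomach, 138 (8.85% against 8.41%) in the womb, 131 (8.40% against 6.91%) in the cerebrum and 115 (7.37% against 13.1%) in the ovary, where the womb was near and the ovary below the share of all genes. Among the lists, 23 of 26 brush border genes were highest in the duodenum, and 13 of 16 mucous and 30 of 38 squamous genes in the stomach. Fabp1 averaged 3130.2 FPKM in the duodenum and 5461 in the liver, S100g 1802 and 1337 in the kidney, and Cd79a 64.1 and 991 in the spleen. Jchain, in contrast, averaged 772 FPKM in the duodenum and 406 in the spleen. The most abundant gastric genes were also listed at low levels elsewhere, with means of 0 to 15.6 FPKM for Tff1, 0 to 47.1 for Pgc and 0 to 94.0 for Clps over the 13 other tissues. Pgc was 0.53 to 287 FPKM over the duodenum libraries, and all but the 287 FPKM of Duodenum estrus 1 lay within the range of those means.

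Most calls toward the duodenum were made in both phases. Within estrus 1562 genes were called higher in the duodenum (12.0%) and 1584 in the stomach (12.2%), and within diestrus 1543 (11.9%) and 1257 (9.68%). Of these, 1170 were called toward the duodenum in both phases, which is 74.9% of the estrus and 75.8% of the diestrus calls, and 852 toward the stomach, 53.8 and 67.8% of them, and 0 genes were called in opposite directions. The estrus count toward the stomach was 2447 without Duodenum estrus 1, 794 without Duodenum estrus 2 and 988 without Stomach estrus 1. A test of whether the difference itself changed with the phase called 1 gene (0.00770%), although 1449 genes had an unadjusted p under 0.05 in limma. The count depended on single libraries, with 0 genes without Duodenum estrus 2, Duodenum diestrus 2, Stomach estrus 1, Stomach estrus 3 or Stomach diestrus 1, 8 without Duodenum estrus 1, 10 without Duodenum estrus 3 and 140 without Stomach estrus 2. The gene called with all 12 libraries was Fkbp5, a cochaperone that glucocorticoids and progesterone are known to induce. In the duodenum Fkbp5 was 18.4, 23.4 and 22.9 FPKM in the estrus libraries against 4.29, 3.31 and 2.84 FPKM in those of diestrus, without overlap, and in the stomach 9.94, 10.1 and 11.6 and 14.9, 9.43 and 12.8, which overlap. Its tissue difference was 0.96 in estrus and -1.57 in diestrus, a change of 2.53 ± 0.27 between phases (limma, adjusted p = 0.021), and over both phases together it was not called (-0.30, adjusted p = 0.55). Nr3c1 and Nr3c2, which bind glucocorticoids, were not called for such a change (adjusted p = 0.56 and 0.88).

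**Figure D5:**
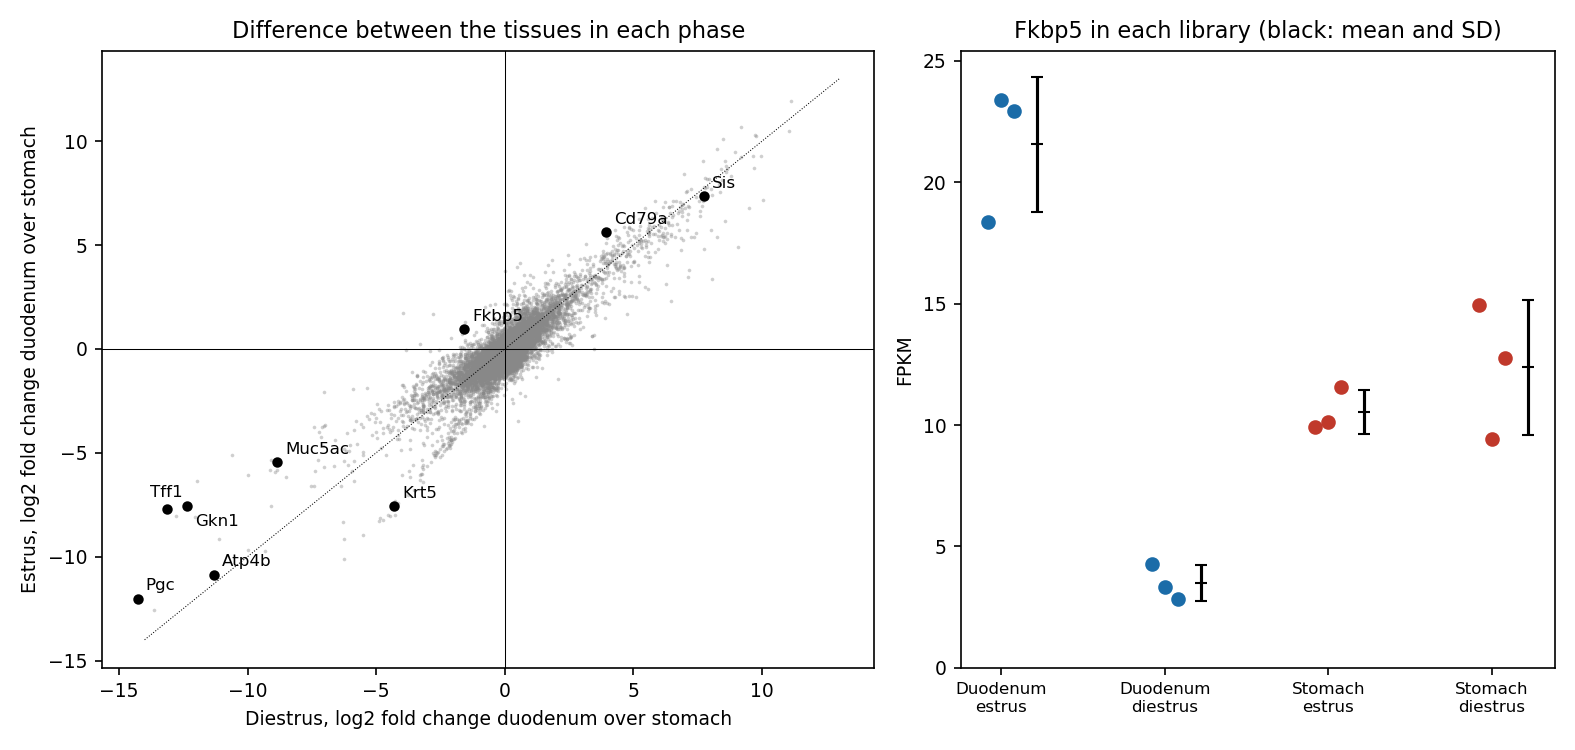
Left, log2 fold change of duodenum over stomach within diestrus (horizontal) and within estrus (vertical) for each tested gene. Gastric mucous genes such as Tff1 are farther from 0 in diestrus and Krt5 is farther from 0 in estrus. The estrus libraries include Duodenum estrus 1, with mucous genes at stomach levels, and Stomach estrus 1 and 3, with the most squamous keratin. No gene but Fkbp5 was called for a change with the phase. Right, FPKM of Fkbp5 in the 12 libraries by tissue and phase, with the mean and SD of 3 libraries, where the estrus duodenum libraries lie at 18.4 to 23.4 FPKM and the diestrus ones at 2.84 to 4.29.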

How the data were processed

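Total RNA of duodenum and stomach from female mice (C57BL/6 per the labels, C57BL/6J in the study's methods) was sequenced on the BGISEQ-500 after TruSeq library preparation. The authors cleaned the reads, aligned them with Bowtie2 2.2.5 and deposited FPKM values per gene from RSEM 1.2.8, with GRCm38.p5 named in the submitters' processing notes. FPKM scales each gene by its length and by the library total, so a highly expressed gene lowers the share left for the others. No other unit was used, and 0 columns of the table lacked a sample.

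Genes that averaged at least 1 FPKM across the 12 libraries were fitted in limma 3.58.1 (R 4.3.3) as log2(FPKM + 1) on tissue and phase, with a trend in the variance. A gene was called where the log2 fold change reached 1 or -1 and the Benjamini-Hochberg adjusted p over all genes tested was 0.05 or less. Fold changes on this scale understate the change of low genes. The difference between phases was tested as the tissue by phase term, and each phase by its own contrast in a fit with 1 mean per tissue and phase. The p-values set each difference against the spread between these libraries, taken as independent although duodenum and stomach libraries share mice. Lists were described by counts and medians alone. The script was tested on simulated data. Tables were handled in Python 3.11.15 with pandas 2.3.3 and numpy 2.4.6, and plots drawn with matplotlib 3.10.9.

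The comparison and the 40 gene lists were chosen with earlier results of these data known. Of 783 list entries, 18 matched no symbol in the table. Per list, the 3 tested members with the highest mean in either tissue were named, with up to 3 called members against the direction of the list, the members of paralog families, gut hormones and regional transcription factors, the 10 called genes with the largest separated difference in each direction and up to 5 genes of the interaction. Other genes named were chosen after their values were seen, Hamp2 among them. A few members of these lists are not reported here. The 2 promoter motifs were chosen after 23 letter strings had been looked at.

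Read counts were not used here. Depth was estimated from the steps between low values of 933 genes with transcripts of 300 to 1100 bases. It was approximately 12.3 to 18.6 M reads in 11 libraries and 28.75 M in Duodenum estrus 1. A multiple of the true depth also turns whole reads into whole numbers, so the higher estimate cannot show a deeper library. Only 58.2% to 71.8% of values were whole within 0.2 reads, so counts were not recovered.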

Additional observations from a re-analysis of the deposited data

Results flagged for a closer look

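Within the 6 libraries of a tissue, values were taken as log2(FPKM + 1), and for lists as log2(summed FPKM + 1). On this scale, the gap between the highest or lowest value and its neighbour was divided by the range of the 6 values. A library was counted as far from the others where this ratio was above Dixon's 95% critical value for 6 samples. Chance passes this limit in about 1 of 20 groups. Members of a list also enter its sum, so the counts below are not of separate cases and were not compared with this share. The ratio of gap to range stands after each gene or summed gene list, and the libraries that shared a direction are given together.

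Duodenum estrus 1 was the library concerned in most cases, with 42 values above and 14 below the 5 other duodenum libraries. The summed FPKM was high there for the lists of gastric surface and neck mucous cells (0.917), gastric chief cells (0.748), tuft cells (0.756), squamous epithelium (0.772), smooth muscle (0.663), skeletal muscle fibres (0.784), trefoil factor family (0.858), secreted mucins (0.717) and simple keratins (0.645). Genes of the gastric surface, its mucus and its glands were high in it, namely Cldn18 (0.99), Gkn1 (0.879), Gkn2 (0.857), Gkn3 (0.755), Muc1 (0.871), Muc5ac (0.987), Muc6 (0.92), Pgc (0.851), Psca (0.905), Tff1 (0.71), Tff2 (0.767) and Vsig1 (0.972). The transcription factor genes Barx1 (1.00), Foxa1 (0.645), Foxa3 (0.672), Isl1 (0.723) and Sox2 (0.967) were high, as were the channel, transporter and carbonic anhydrase family genes Ano1 (0.716), Aqp3 (0.628), Aqp5 (0.947), Car11 (0.661), Kcnj15 (0.788) and Slc26a9 (0.982). Genes of keratinising or gastric epithelium were high as well, namely Krt13 (0.88), Krt23 (0.801) and Trim29 (0.898), and so were the muscle genes Tagln (0.647) and Tnni2 (0.862). The other genes high in this library were Avil (0.831), Gast (1.00), Pla2g1b (0.803), Sctr (0.832) and Ttr (0.627). Low in it were Mogat2 (0.761), Muc13 (0.659), Npc1l1 (0.628), Pigr (0.758) and Slc51a (0.685), which serve lipid and bile acid handling, antibody transport and the apical mucus layer, the transcription factor genes Gata5 (0.677), Hnf4g (0.757) and Vdr (0.658), the junction genes Cldn15 (0.906), Cldn7 (0.91) and Marveld3 (0.655), and Acta1 (0.636), Aqp11 (0.687) and Vipr1 (0.707). This library also had the highest estimated depth of the 12, although that estimate may be a multiple of the true depth. The part of depth in these values was not tested.

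Stomach estrus 3 was low in the summed FPKM of mast cells and eosinophils (0.65), the summed FPKM of gastrin and cholecystokinin (0.721), Acta1 (0.649), Adcyap1r1 (0.636), Bhlha15 (0.632), Car4 (0.634), Car8 (0.787), Cblif (0.734), Cckar (0.645), Chgb (0.706), Chia1 (0.768), Chrm3 (0.771), Kit (0.706), Mcpt2 (0.704), Pnliprp2 (0.644), Scg5 (0.872), Slc18a2 (0.824) and Sst (0.656), which include genes of chief and parietal cell regulation, endocrine secretion and mast cells. The same library was high in Alpi (0.651), Slc3a2 (0.7002) and Tnni2 (0.672). Stomach estrus 1 was high in Cldn15 (0.717), Cldn5 (0.715), Cxcl13 (0.747), Etv1 (0.677), Tns1 (0.636) and Vip (0.707). Stomach estrus 2 was high in Hamp2 (0.734), and Stomach diestrus 3 in Itln1 (0.932) and Reg1 (0.676). In the duodenum, Duodenum estrus 2 was low in Car12 (0.68) and Mki67 (0.662), and Duodenum diestrus 2 was high in C1qa (0.784) and Prg2 (0.704).

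With all 12 libraries, the difference between duodenum and stomach was itself called as differing between the phases for 1 gene. For Fkbp5 the log2 fold change was 0.96 in estrus and -1.57 in diestrus, a difference of 2.53 ± 0.27 (SE, limma tissue by phase term, adjusted p 0.021). The number of genes called by this term changed when single libraries were left out. It was 0, with Fkbp5 uncalled, without Duodenum estrus 2, Duodenum diestrus 2, Stomach estrus 1, Stomach estrus 3 or Stomach diestrus 1. With the replicate block it was 0 as well.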

How the results depend on the processing

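The calls were computed again with a pseudocount of 0.1, with all genes above 0 in any library, with genes of at least 5 FPKM on average, with median-ratio scaling, with values rescaled to TPM, without phase as a covariate, without the trend, in 1 fit of all 90 libraries, with a replicate block and without each library in turn. Leaving out Stomach estrus 1 and 3, alone or with Duodenum estrus 1, was added after the data were seen. The 3135 genes called became 2280 to 3739 over the settings that keep all 12 libraries and 2857 to 3407 over those that leave out 1, and no count or named gene reversed. The median log2 fold change of all genes was -0.06 as deposited and 0.07 after rescaling to TPM, which gave 2027 genes higher in duodenum and 1605 higher in stomach.

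Estrus calls toward the stomach, 1584 with all libraries, ranged from 794 to 2447 without single libraries and were 634 without Stomach estrus 1 and 3. The interaction count of 1 was 2 with median-ratio scaling, 0 with the replicate block, 0 without Stomach estrus 1 and 3, 2 without these and Duodenum estrus 1, and 0 to 140 without single libraries. At an unadjusted p under 0.05, 1449 genes passed the interaction term, and 1837 with the block. The cause of these changes was not tested.

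The labels do not say that equal replicate numbers are 1 mouse, so the numbers were not used as pairs. Deviations of same-numbered duodenum and stomach libraries correlated at -0.098 to 0.0955, against -0.0833 to 0.110 for different numbers. With 3 libraries per tissue and phase, these values cannot show whether equal numbers mark the same mouse. With the replicate block, 1561 genes were higher in duodenum and 1551 in stomach, Acta2, Actg2, Ehf and Tagln gained a call and Foxq1 and Gcg lost one.

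Of the 285 genes named, 240 kept their side of the limits in every alternative in which they were tested. In the fits that leave out 1 library, 12 lost the call and 16 gained one. Without Stomach estrus 1 and 3, 10 of 280 lost the call and 7 gained one. The depth limits genes near 1 FPKM most, and no counts were at hand to put an interval on them.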
